A study of Mus musculus with 35 samples.

Results

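The lipoxygenase genes of mouse skin were followed through 4 weeks after a single dose of radiation. They were chosen by symbol: the barrier enzymes Alox12b and Aloxe3, the epidermal Alox12e and Alox12, and Alox8, Alox15 and Alox5. All 7 symbols were found, each once, among the 36106 genes of the count table. Bulk RNA was sequenced from 35 skin samples. The mice were C57BL/6J, an inbred strain, all female and aged 10 weeks. The series text gives 19 mice. The sham group held 3 unirradiated mice. The radiated groups held 4 samples of flank skin at each of weeks 1, 2, 3 and 4 after 25 Gy, delivered at 3.6 Gy per min over 420 seconds and followed by shaving of the treated skin. The control groups held 4 samples at each of the same weeks. Each control sample has the number of a radiated sample in the labels, and from this and the number of mice both were taken to come from 1 animal, so that control skin would be skin of a radiated mouse and not of an untreated one. The body site and shaving of the control skin and the shaving of sham mice are not given in the sources used here. No allele or agent other than radiation is named for any group.

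Lipoxygenases add oxygen to polyunsaturated fatty acids. In the upper epidermis Alox12b and Aloxe3 act one after the other on the linoleate of acylceramides, a step needed to build the lipid envelope around corneocytes, and loss of either gene causes a form of congenital ichthyosis. Alox12, Alox12e, Alox8 and Alox15 make hydroperoxy fatty acids from arachidonic or linoleic acid, and Alox5, mostly a gene of leukocytes, starts the synthesis of leukotrienes together with its partner protein Alox5ap.

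On the GRCm38 assembly with GENCODE annotation, 6 of the 7 genes lie on chromosome 11. Aloxe3 (chr11:69125896-69149115) and Alox12b (chr11:69156989-69169792) lie on the plus strand, 7.9 kb apart, and Alox8 (chr11:69183932-69197843, minus strand) follows 14.1 kb further with 0 annotated genes between. The second cluster, 1043.6 kb away with 90 genes between, holds Alox12 (chr11:70241457-70255353), Alox12e (chr11:70315610-70322628) and Alox15 (chr11:70344152-70352031), all on the minus strand. Alox5 lies on chromosome 6 (chr6:116410077-116461178, minus strand). No annotated gene overlaps any of them. RefSeq promoter windows on GRCm38.p6, which take in the start of the gene, matched 5 of the 7 genes, and all 5 held a GC box (GGGCGG, read on both strands), as did 35.7% of 32851 promoter windows of the same length. One site of each is shown because genes that fell at week 4 (Alox12b, Alox12e and Alox12), one that rose (Alox8) and one that did not pass (Alox5) all hold this motif. They are written 5′ to 3′ in the direction of the gene, with the GC box or its reverse complement in capitals.
Alox12b (chr11:69156834-69156859, plus strand, 228 bases upstream of the start): aggccctgccCCGCCCcctcccccaa
Alox12e (chr11:70322557-70322582, minus strand, 42 bases upstream): ggacctgagtGGGCGGgggcaattca
Alox12 (chr11:70255410-70255435, minus strand, 55 bases upstream): gactagtctgGGGCGGggacttggga
Alox8 (chr11:69197870-69197895, minus strand, 42 bases upstream): ctggtctgatGGGCGGggcatcgctg
Alox5 (chr6:116461198-116461223, minus strand, 35 bases upstream): ccagagacagGGGCGGagccagcgcc
Starts are those of RefSeq, and the Alox12e site lies inside the GENCODE gene, which begins further upstream. The AP-1 motif TGANTCA was in 0 of the 5 windows and in 7.81% of all windows, and CCAAT was in 1, that of Alox12e, and in 37.4% of all windows. None of the 3 motifs contains another, all were read on both strands, and they were chosen after expression results were known. A match describes letters only.

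Levels are given as CPM, counts relative to the TMM-scaled size of the library, and genes are compared with each other only as CPM per kb of transcript. In sham skin Alox12e was the most abundant lipoxygenase, at 79.0 ± 36.7 CPM per kb (SD, n = 3). Alox12b followed at 9.38 ± 1.5, Aloxe3 at 8.91 ± 2.34, Alox8 at 8.78 ± 7.06, Alox12 at 6.42 ± 3.26, Alox5 at 2.92 ± 0.735 and Alox15 at 0.349 ± 0.369 CPM per kb. Alox12e thus supplied 66.4% ± 13.2 (SD, n = 3) of the summed lipoxygenase CPM per kb of sham skin. In control skin of week 4 its share was 47.5% ± 4.08 (n = 4), and in radiated skin of week 4 it was 9.63% ± 6.51 (n = 4), with no overlap between the 3 groups. There Alox12b held 34.3% ± 5.73, Aloxe3 19.1% ± 1.56 and Alox5 19.0% ± 6.14, where control skin of week 4 had 21.1% ± 2.20, 16.6% ± 2.37 and 5.62% ± 0.891. A larger share was not a higher level for Alox12b and Aloxe3. Their means were 10.7 and 5.88 CPM per kb in radiated and 16.2 and 12.7 in control skin of week 4. Those of Alox5 were 5.56 and 4.27. In bulk samples, fewer cells of a type and less RNA per cell cannot be told apart, so each of these levels joins both.

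**Figure D1:**
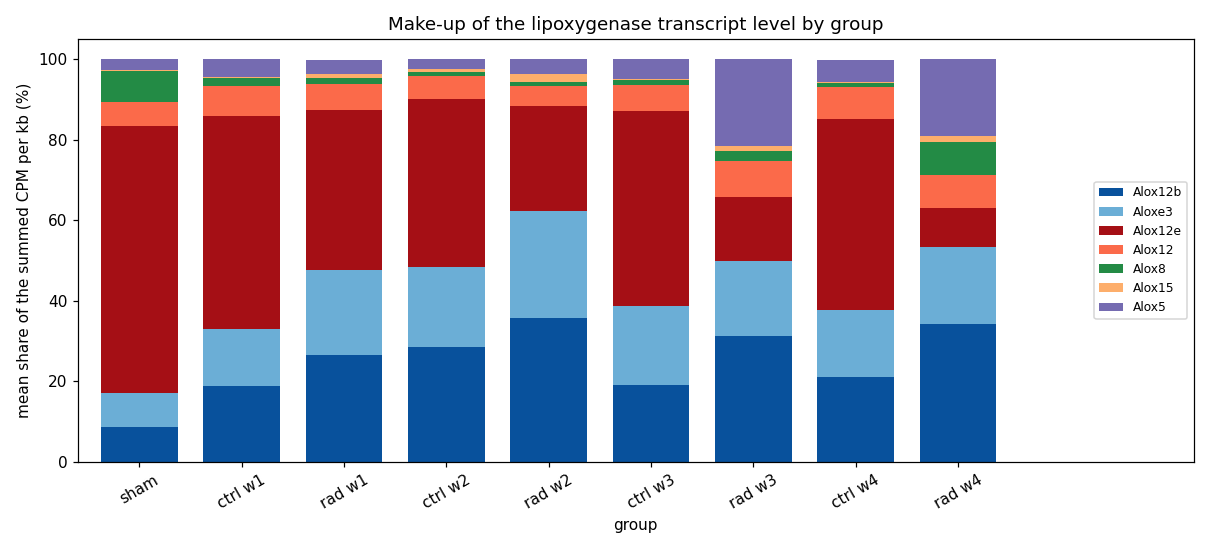
Mean share of each lipoxygenase gene in the summed CPM per kb of the 7 genes (vertical axis, percent) in the 9 groups. The dark red Alox12e block is largest in sham skin (66.4%) and is 9.63% in radiated skin of week 4, where the purple Alox5 block reaches 19.0%.

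Radiated skin was set against the control skin of each week, and in edgeR's test lipoxygenases passed at week 4 only, the week at which the share of all genes passing was also highest. The log2 values themselves were not all largest then, since Alox15 had 1.64 and 1.51 at weeks 1 and 2 and 1.11 at week 4, and Alox5 had 0.66 at week 3 and 0.38 at week 4. Of the 7 genes, 4 fell (Alox12e, Alox12, Aloxe3 and Alox12b) and 2 rose (Alox8 and Alox15) at an adjusted p under 0.05 in edgeR's quasi-likelihood test. Of all 17850 genes tested, 48.4% passed there, with 24.2% of those tested higher and 24.2% lower. The share of lipoxygenases that passed should be read against that large background. Their median log2 fold change was -0.60, beside 0.02 over all genes. At week 3 edgeR passed 0 of the 7, although 2 had an unadjusted p under 0.05 and 27.2% of all genes passed, and DESeq2 passed 2 (Aloxe3 and Alox12) and 28.9% of all genes. At week 1 edgeR passed 0 of 7, with 1 (Alox15) at an unadjusted p under 0.05 and a background of 0%, and at week 2 it passed 0 of 7, with 0 at an unadjusted p under 0.05 and a background of 0.00577%. DESeq2 also passed 0 of 7 at weeks 1 and 2, where it passed 2.56% and 3.9% of all genes, and the replicate block passed 0 of 7 and 3.7% of all genes at week 2.

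**Figure D2:**
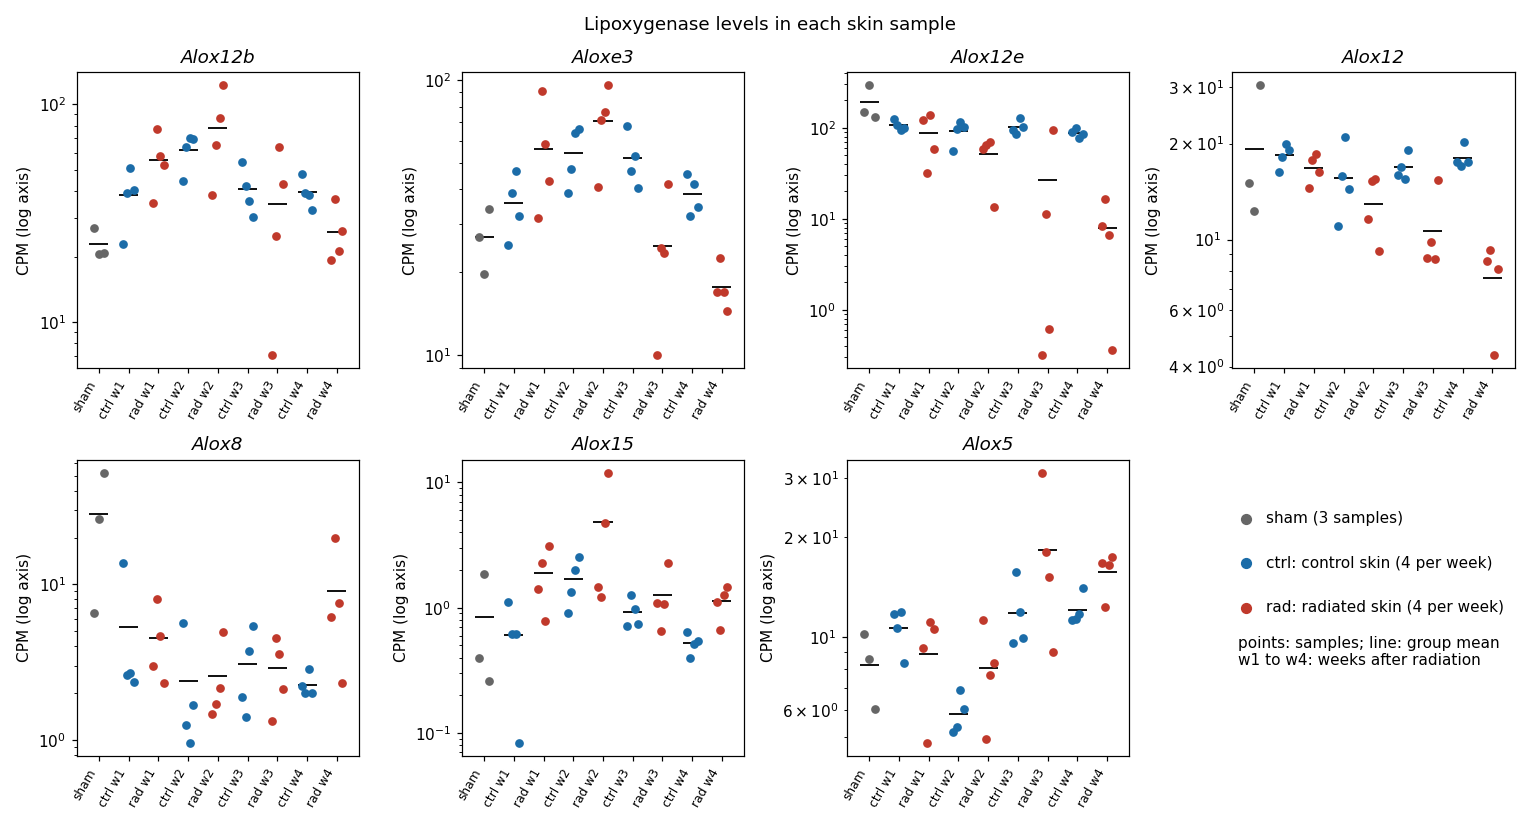
CPM of each lipoxygenase gene (vertical log axis) in every sample, by group from sham to radiated skin of week 4, with black lines at group means. The radiated samples of Alox12e are spread from 0.320 to 95.7 CPM at week 3 and lie at 16.7 CPM or below at week 4, while the control samples of week 4 lie between 77.9 and 98.5 CPM.

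Alox12b and Aloxe3 had their highest group means in radiated skin of week 2, at 78.1 ± 35.5 and 71.1 ± 22.6 CPM (n = 4, SD), and lower means at week 4. At week 1 Alox12b had 35.1, 77.5, 58.2 and 52.6 CPM in radiated samples 1 to 4 and 22.9, 39.2, 50.9 and 40.3 CPM in control samples 1 to 4. Each radiated sample was above the control sample of the same number, in 4 of 4 pairs, but the groups overlapped and the log2 difference of 0.55 (SE 0.27) had an edgeR adjusted p of 0.385. Aloxe3 was likewise higher in 4 of 4 pairs at week 1 and in 4 of 4 at week 2, with log2 differences of 0.66 (SE 0.304, edgeR adjusted p = 0.361) and 0.39 (SE 0.265, adjusted p = 0.546). Neither excess passed the test.

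By week 4 Aloxe3 had 17.0, 22.5, 17.0 and 14.5 CPM in radiated skin against 45.4, 32.0, 41.7 and 34.5 CPM in control skin. The groups did not overlap, and Aloxe3 fell by 1.11 on the log2 scale (SE 0.160, edgeR adjusted p = 0.000354), a 2.15-fold decrease. At week 3 it had 10.1, 24.5, 23.5 and 41.8 CPM in radiated skin and 40.4 to 67.7 CPM in control skin, and the log2 difference of -1.03 (SE 0.358) had an adjusted p of 0.057. Without radiated sample 4 of that week, the highest of the 4, the difference was -1.39 with an adjusted p of 0.0124.

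Alox12b, which acts just before Aloxe3, differed less. It had 19.2, 36.9, 21.3 and 26.4 CPM in radiated skin of week 4 and 47.8, 39.0, 38.4 and 32.6 CPM in control skin. The groups overlapped through radiated sample 2, and Alox12b fell by 0.60 on the log2 scale (SE 0.201, edgeR adjusted p = 0.0331), lower in 4 of 4 pairs. This call ended with total-count scaling (adjusted p = 0.0721), in a fit of all 35 samples (0.236) and when any 1 of radiated samples 1, 3 and 4 or control samples 1, 2 and 3 was left out (0.0579 to 0.0929). At week 3 the 4 radiated samples ran from 7.09 to 63.8 CPM, across the control range of 30.4 to 54.5 CPM, and no difference passed (log2 -0.20, SE 0.514, adjusted p = 0.8).

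The log2 ratio of Aloxe3 to Alox12b CPM at week 4 was -0.52 ± 0.32 (SD) in the 4 radiated samples and -0.04 ± 0.18 in the 4 control samples. That difference of -0.48 had a two-sided exact permutation p of 0.0571 over 70 splits, where 0.0286 was the smallest p possible, and 0.228 after Benjamini-Hochberg adjustment over 4 weeks. At week 3 the difference was -0.61 (exact permutation p = 0.143, adjusted 0.286). The ratio was lower in the radiated sample of 4 of 4 pairs at week 4 and of 3 of 4 at week 3, and this test does not use the pairing.

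Alox12e, a 12-lipoxygenase gene of mouse epidermis, showed the widest span of group means, 24.0-fold from sham skin (191 ± 88.8 CPM, SD, n = 3) to radiated skin of week 4 (7.97 ± 6.73 CPM, n = 4). At week 4 the radiated samples had 8.24, 16.7, 6.62 and 0.357 CPM and the control samples 89.1, 98.5, 77.9 and 86.6 CPM. The highest radiated sample was far below the lowest control sample. Alox12e fell by 3.45 on the log2 scale (SE 0.671, edgeR adjusted p = 0.00213), a 10.9-fold decrease, and with the sample number as a replicate block the value was -3.86 (adjusted p = 0.00573). Without radiated sample 2, the highest of its group, it was -4.10, a 17.2-fold decrease (adjusted p = 0.00146).

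At week 3 the radiated samples of Alox12e had 0.320, 11.3, 0.609 and 95.7 CPM, against 94.8, 85.6, 129 and 103 CPM in the control samples. In 3 mice the level was below 12 CPM, the lowest resting on 7 counts, while sample 4 stood inside the control range. The log2 difference of -1.92 (SE 1.27) did not pass (edgeR adjusted p = 0.286). It was -4.44 with the replicate block (adjusted p = 0.0913) and -4.64 without radiated sample 4 (adjusted p = 0.0117).

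Radiated sample 4 of week 3 also stood apart in the summed CPM of 12 markers of differentiated keratinocytes, the cells of the upper epidermis, with 22811 CPM where the other 3 radiated samples had 943, 3683 and 7905 CPM. The control samples of week 3 had between 10863 and 14958 CPM, so that sample 4 lay above their range in this sum. At week 4 the radiated samples had between 2162 and 10487 CPM for this list and the control samples between 16935 and 18716 CPM, with 7 of 12 markers lower, 2 higher and 0 of the 12 at 0 in every sample. The list of 6 basal keratinocyte markers ran from 11128 to 13587 CPM in radiated and from 11105 to 13579 CPM in control skin of week 4, while 3 of its 6 markers were lower and 1 higher, with a median log2 fold change of -0.45. The marker counts of both lists stand beside 24.2% of all genes lower and 24.2% higher at week 4. Over the 16 radiated samples, the Pearson correlation of the differentiated list's log2 sum with log2 CPM was 0.81 for Alox12e, 0.85 for Alox12b, 0.85 for Aloxe3 and 0.59 for Alox12. Over the 16 control samples it was -0.00011 for Alox12e, 0.36 for Alox12b, 0.13 for Aloxe3 and 0.52 for Alox12. The sum of 9 mast cell markers had -0.82, -0.7, -0.88 and -0.73 with these 4 genes, in this order, over the radiated samples. Its correlations were 0.078, -0.38, -0.38 and 0.28 over the control samples. These are descriptions over samples that share weeks and libraries, and the part of the marker change in the fall of the 4 genes was not tested.

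**Figure D3:**
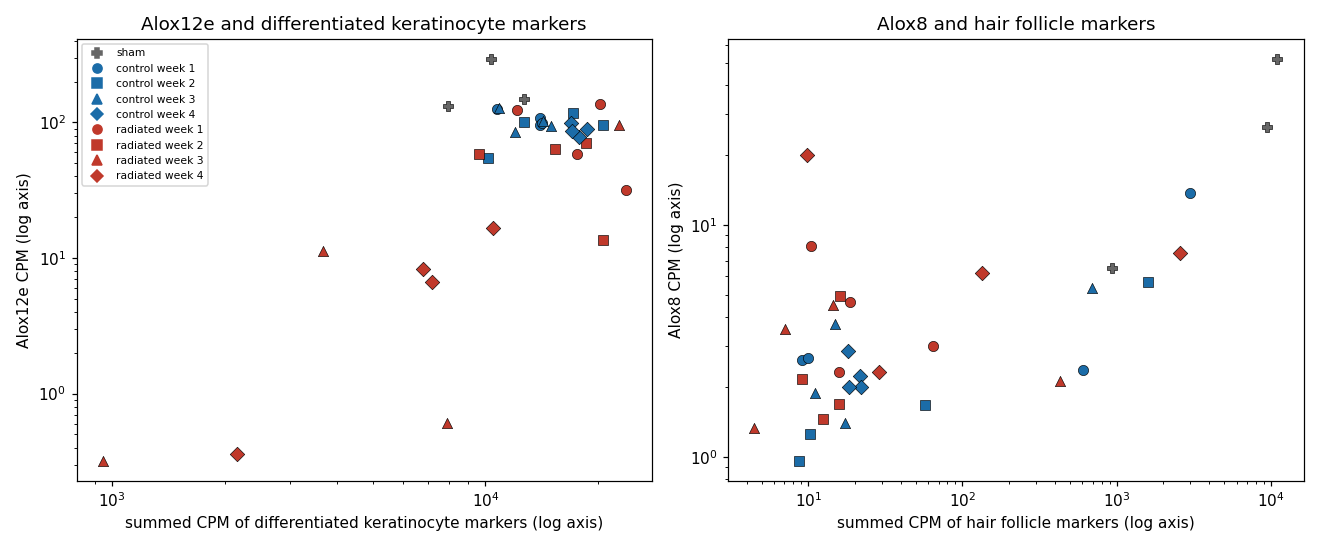
Left, Alox12e CPM against the summed CPM of 12 differentiated keratinocyte markers, and right, Alox8 CPM against the summed CPM of 11 hair follicle markers, 1 point per sample on log axes. In the Alox12e plot, 7 of the 8 radiated samples of weeks 3 and 4 lie to the lower left and sample 4 of week 3 lies at the upper right, and the upper left of the Alox8 plot holds a radiated sample of week 4 with 20.0 CPM of Alox8 and a hair follicle sum of 9.77 CPM.

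Alox12, the 12-lipoxygenase of platelets and epidermis, had the smallest span of group means, 2.54-fold, and a coefficient of variation among control samples of 8.67%, 9.54% and 8.34% at weeks 1, 3 and 4 and of 26.4% at week 2. In radiated skin of week 4 it had 8.58, 9.27, 4.36 and 8.07 CPM, against 17.5, 17.0, 20.3 and 17.5 CPM in control skin. The groups did not overlap, and Alox12 fell by 1.25 on the log2 scale (SE 0.213, edgeR adjusted p = 0.000982). At week 3 the radiated samples had 8.73, 9.84, 8.68 and 15.4 CPM and the control samples 15.9, 16.9, 15.5 and 19.1 CPM. These did not overlap either, at a week when 27.2% of all genes passed. The log2 difference of -0.64 (SE 0.213) did not pass in edgeR (adjusted p = 0.0508) and passed with the replicate block (-0.67, adjusted p = 0.0476), with DESeq2 (0.0237) and without radiated sample 4 (-0.86, 0.00634). The sums of 8 platelet markers went the other way, from 29.1 to 55.7 CPM in radiated and from 12.3 to 18.6 CPM in control skin of week 4. Of the 6 tested, 4 were higher and 1 lower, where 24.2% of all genes were higher and 24.2% lower. The correlation of the platelet sum with Alox12 was -0.63 over 35 samples and 0.14 over the 16 control samples. The part of platelets in the level of Alox12 was not tested.

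Alox8 makes 8-hydroperoxy fatty acids and had a level that differed widely between single samples. The sham samples had 6.53, 26.4 and 52.0 CPM. In radiated skin of week 4 it had 6.19, 20.0, 7.54 and 2.32 CPM, and in control skin 2.22, 1.99, 2.86 and 2.00 CPM. Radiated sample 4 overlapped the control range and the other 3 were above it. Alox8 rose by 2.00 on the log2 scale (SE 0.543, edgeR adjusted p = 0.0127), a 3.99-fold increase with 4 of 4 pairs higher, and by 1.63 with the replicate block (adjusted p = 0.0337). Without radiated sample 2, the highest, the log2 value was 1.25, a 2.38-fold increase (adjusted p = 0.0238). At weeks 1 to 3 its log2 differences were -0.24, 0.11 and -0.07, with adjusted p values from 0.874 to 0.956.

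The sums of 11 hair follicle markers, genes of growing hair shafts and their sheaths, were 938, 9495 and 11018 CPM in the sham samples, in the same order as Alox8. The control sample with the most Alox8 at week 1 (13.7 CPM) had 2977 CPM of these markers, the one at week 2 (5.65 CPM) had 1595 CPM and the one at week 3 (5.37 CPM) had 694 CPM, each the highest of its group. The order below the top sample differed. Control sample 4 of week 1 and control sample 2 of week 3 had the lowest Alox8 of their groups (2.35 and 1.39 CPM) and the second-highest sums (602 and 17.4 CPM). At week 4 the control sample with the most Alox8 (2.86 CPM) had the lowest sum (18.1 CPM). The correlation of the 2 log2 levels was 0.77 over the 16 control samples and 0.18 over the 16 radiated ones. In radiated skin of week 4 the hair follicle sums were 134, 9.77, 2594 and 28.6 CPM in samples 1 to 4. The sample with the most Alox8, 20.0 CPM in sample 2, thus had the lowest sum, below the 18.1 to 22.2 CPM of the control samples. Of the 8 hair follicle markers tested at week 4, 6 were higher in radiated skin and 0 lower, where 24.2% of all genes were higher and 24.2% lower.

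Alox15, known from macrophages and eosinophils and, in mice, as a 12/15-lipoxygenase, was the scarcest of the 7 genes per kb in 8 of the 9 groups, the exception being radiated skin of week 2, and had 2 to 218 counts a sample. In radiated skin of week 4 it had 1.11, 0.659, 1.26 and 1.47 CPM, and in control skin 0.635, 0.398, 0.512 and 0.538 CPM. The groups did not overlap and Alox15 rose by 1.11 on the log2 scale (SE 0.334, edgeR adjusted p = 0.0204). Without control sample 2 or 3 or radiated sample 4 the adjusted p was 0.0549, 0.0501 or 0.0634, and in a fit of all 35 samples it was 0.199. The counts were 17 to 33 in radiated and 9 to 14 in control skin. At week 1 Alox15 was higher in 4 of 4 pairs, with a log2 difference of 1.64 (SE 0.632) at an unadjusted p of 0.0253 that did not pass adjustment (edgeR adjusted p = 0.293). At week 2 radiated samples 3 and 4 had 4.74 and 11.9 CPM and samples 1 and 2 had 1.46 and 1.23 CPM, within the control range of 0.902 to 2.55 CPM. The log2 difference of that week was 1.51 (SE 0.692, adjusted p = 0.372). The sum of 6 eosinophil markers was 6.66 to 8.83 CPM in radiated and 4.65 to 8.04 CPM in control skin of week 4, with Epx at 0 in all 4 control samples. Of the 4 eosinophil markers tested, 2 (Ccr3 and Siglecf) were higher and 0 lower, with a median log2 fold change of 0.60, where 24.2% of all genes were higher. The part of these cells in the level of Alox15 was not tested.

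Alox5, the 5-lipoxygenase, had 16.7, 12.3, 16.5 and 17.3 CPM in radiated skin of week 4 and 11.2, 11.3, 11.7 and 14.0 CPM in control skin. It was higher in 4 of 4 pairs with a log2 difference of 0.38 (SE 0.145) that did not pass in edgeR (adjusted p = 0.0507) and passed in DESeq2 (0.0487), with total-count scaling (0.0198) and without radiated sample 2 (0.0142) or control sample 4 (0.0317). At week 3 the radiated samples had 31.1, 18.0, 15.1 and 8.98 CPM and the control samples 9.54, 15.7, 11.9 and 9.93 CPM. The lowest radiated value was that of sample 4, the sample that kept Alox12e, and the log2 difference of 0.66 (SE 0.351, adjusted p = 0.185) became 0.89 without it (adjusted p = 0.0483). Against sham skin of 10.2, 8.54 and 6.04 CPM, Alox5 rose at week 4 by 0.97 on the log2 scale (SE 0.228, adjusted p = 0.0147), and the groups did not overlap.

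Markers of macrophages and mast cells moved with Alox5 over the radiated samples. The sum of 9 macrophage markers was 1414 to 2039 CPM in radiated and 215 to 353 CPM in control skin of week 4, with 9 of 9 higher. The sum of 12 neutrophil markers was 215 to 450 CPM against 13.1 to 24.9 CPM (7 of 8 tested higher and 0 lower), and that of 9 mast cell markers 152 to 225 CPM against 45.3 to 51.7 CPM (7 of 9 higher and 1 lower), with Ly6g the only listed marker of these at 0 in all 4 control samples. Fibroblast markers were also higher, 6 of 6. These counts stand beside 24.2% of all genes higher and 24.2% lower at week 4. The correlation with log2 CPM of Alox5 over the 16 radiated samples was 0.84 for the macrophage sum, 0.85 for the mast cell sum and -0.85 for the differentiated keratinocyte sum. Over the 16 control samples it was 0.49, 0.38 and -0.035. The neutrophil sum had 0.72 over the radiated and 0.055 over the control samples, and the eosinophil and Langerhans cell sums had -0.21 each over the radiated and 0.53 and 0.57 over the control samples. The fibroblast and platelet sums had 0.6 and 0.63 over the radiated and 0.094 and 0.19 over the control samples. The part of these cell types in the level of Alox5 was not tested.

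**Figure D4:**
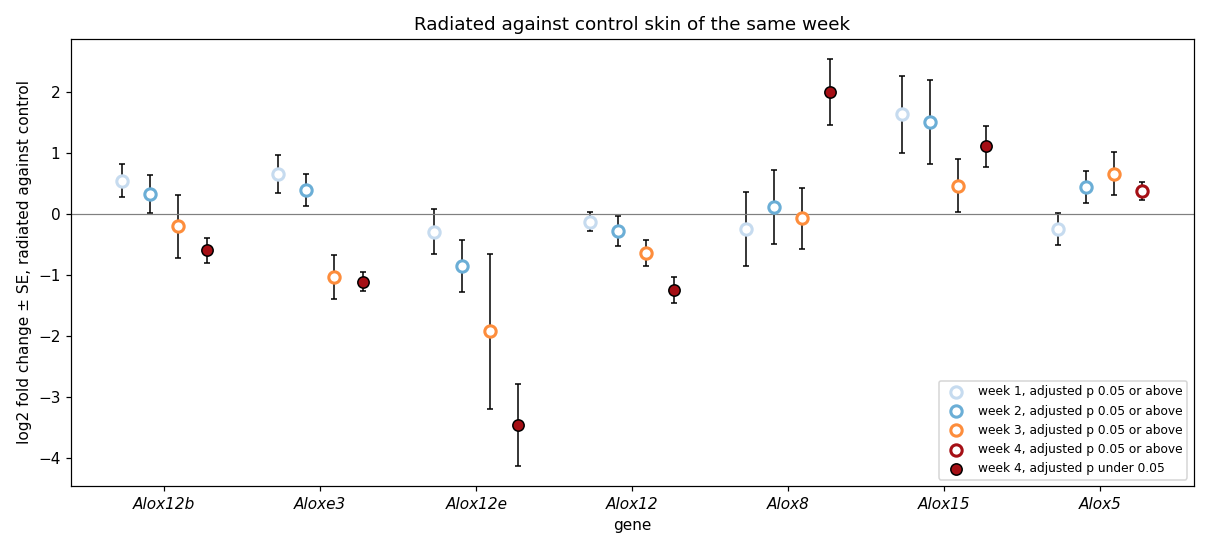
Log2 fold change of radiated against control skin (vertical axis, with standard errors) of each lipoxygenase gene at weeks 1 to 4, with filled points at an adjusted p under 0.05. All 6 filled points are of week 4: Alox12b, Aloxe3, Alox12e and Alox12 lie below 0, and Alox8 and Alox15 above it.

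Whether the radiated-minus-control difference varied between weeks 1, 2, 3 and 4 was tested in a single model that held the 32 samples other than sham. Aloxe3 (edgeR adjusted p = 0.00702) and Alox12 (0.0343) passed, where 15.6% of 19338 genes did. The log2 difference of Aloxe3 went from 0.66 and 0.39 at weeks 1 and 2 to -1.03 and -1.11 at weeks 3 and 4, and that of Alox12 was -0.12, -0.28, -0.64 and -1.25. Leaving out the mice of 1 number brought the share of all genes to between 4.97% and 9.2%. Neither call held throughout: that of Aloxe3 ended without the mice numbered 2 (0.0664) or 3 (0.0943), and that of Alox12 without any 1 of the 4 numbers (0.0685 to 0.156). Alox12e, with an adjusted p of 0.241, passed without the mice numbered 4 (0.0166). Alox12b (0.393), Alox8 (0.213), Alox15 (0.686) and Alox5 (0.324) did not pass.

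Comparisons with sham skin share the same 3 sham samples, so their results are not independent of one another. In edgeR control skin passed against sham skin in Alox12b, Aloxe3 and Alox8, while Alox12e, Alox12, Alox15 and Alox5 passed at no week. Alox12e had log2 differences of -0.84, -1.06, -0.91 and -1.13 between control and sham skin at weeks 1 to 4 (edgeR adjusted p = 0.0868, 0.108, 0.062 and 0.0511), with no overlap at any week. In DESeq2 it passed at all 4 weeks (0.0182, 0.0243, 0.0133 and 0.000999), and with total-count scaling at weeks 3 and 4 (0.0333 and 0.0356). Alox12b rose in control skin of weeks 2, 3 and 4 by 1.43, 0.82 and 0.78 on the log2 scale (edgeR adjusted p = 0.0293, 0.0427 and 0.0429), where the sham samples had 27.0, 20.5 and 20.9 CPM. Aloxe3 rose at week 3 by 0.93 (adjusted p = 0.0369). Alox8 fell at weeks 3 and 4 by 3.22 and 3.65 (adjusted p = 0.0225 and 0.0193), and its values were -2.43 and -2.86 without sham sample 3. Of the 7 genes, 0, 1, 3 and 2 passed at weeks 1 to 4, where 4.92%, 2.44%, 11.4% and 3.65% of all genes did. At week 1, 3 of the 7 had an unadjusted p under 0.05, and DESeq2 passed 2 (Alox12b and Alox12e) and 17.1% of all genes. Each of these calls ended without sham sample 2, without sham sample 3, or in both cases (adjusted p from 0.0527 to 0.125). The genes passing in the whole table fell at the same time, from 435 to 1 and 0 at week 2, from 2036 to 704 and 629 at week 3 and from 655 to 281 and 162 at week 4. Each also ended without some single control sample, namely 2, 3 or 4 at week 2, 1, 2 or 3 at week 3 and 1, 2, 3 or 4 at week 4 (0.0581 to 0.127). Without these control samples 0 to 5 genes of the table passed at week 2, 739 to 943 at week 3 and 0 to 312 at week 4. When each sham or control sample was left out in turn, the log2 values of Alox12b ran from 1.35 to 1.59, 0.66 to 0.96 and 0.68 to 0.92 at weeks 2, 3 and 4, those of Aloxe3 from 0.75 to 1.14 at week 3 and those of Alox8 from -3.69 to -2.43 and -4.12 to -2.86 at weeks 3 and 4. Total-count scaling ended those of Alox12b at weeks 3 and 4 (0.0757 and 0.0664) and of Aloxe3 at week 3 (0.0799), and so did the fit of all 35 samples (0.201, 0.367 and 0.0725).

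Radiated against sham skin, Alox12b rose at weeks 1 and 2 by 1.28 and 1.77 (edgeR adjusted p = 0.047 and 0.029), Aloxe3 rose at week 2 by 1.40 (0.0354) and Alox8 fell at weeks 2 and 3 by 3.47 and 3.24 (0.0257 and 0.0148). At week 4 Alox12e fell by 4.54 (SE 0.849, adjusted p = 0.00553) and Alox12 by 1.29 (SE 0.352, adjusted p = 0.027). The counts of 1, 3, 1 and 3 of 7 at weeks 1 to 4 stood beside 1.75%, 5.06%, 18.2% and 26.7% of all genes. The 4 calls of weeks 1 and 2 each ended without sham sample 2 (0.0782 to 0.189), sham sample 3 (0.108 to 0.21) or radiated sample 3 (0.0768 to 0.132). Genes passing in the whole table then went from 319 to 124, 57 and 1 at week 1 and from 912 to 193, 107 and 180 at week 2. The value of Alox8 at week 2 was -2.68 without sham sample 3, a 6.4-fold decrease (adjusted p = 0.119), and over all samples left out in turn those of Alox12b ran from 1.08 to 1.45 and 1.47 to 2.00 at weeks 1 and 2 and that of Aloxe3 from 1.22 to 1.61. The call of Alox12b at week 1 also ended with total-count scaling (0.0536) and in the fit of all 35 samples (0.0691). The calls of Alox8 at week 3 and of Alox12e and Alox5 at week 4 held in all 11 alternatives tried, although the value of Alox8 was -2.50 without sham sample 3 (adjusted p = 0.0494) and that of Alox12e -5.19 without radiated sample 2 (0.00655). Alox12 at week 4 did not pass without radiated sample 1 (0.0547) or 4 (0.0598) or without sham sample 3 (-0.82, adjusted p = 0.0859), which at 30.5 CPM stood above the 15.0 and 12.3 CPM of the other sham samples. The hair follicle sums of the sham samples, up to 11018 CPM, were above those of all 32 other samples in 2 of the 3, and their part in the sham comparisons was not tested.

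Ranking the group means put sham skin first for Alox12e, Alox12 and Alox8, radiated skin of week 2 first for Alox12b, Aloxe3 and Alox15, and radiated skin of week 3 first for Alox5. The lowest mean was that of radiated skin of week 4 for Aloxe3, Alox12e and Alox12, sham skin for Alox12b, control skin of week 4 for Alox8 and Alox15, and control skin of week 2 for Alox5. Neighbours in this order overlapped in 8 of 8 places for 6 of the genes. For Alox12e they overlapped in 7 of 8, the exception being sham skin and the next group, control skin of week 1.

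Among 20 genes of acylceramide and corneocyte lipid envelope synthesis, the pathway in which Alox12b and Aloxe3 act, 9 fell and 4 rose at week 4, when 24.2% of all genes fell and 24.2% rose, with a median log2 fold change of -0.44. Abca12, which loads lipids into lamellar granules, fell by 0.87 (edgeR adjusted p = 0.000398), and Sdr9c7, the dehydrogenase that acts after Aloxe3, fell by 0.55 (0.00292). Lipn fell by 2.82 and Acer1, a ceramidase, by 1.69 (adjusted p = 6.4e-06 and 0.000392), while Ugcg, which makes glucosylceramide, rose by 1.04 (1.8e-05). Cers3, the ceramide synthase of very long chains, was at 121 ± 16.4 CPM in radiated and 125 ± 6.05 CPM in control skin (SD, n = 4, adjusted p = 0.709), and Pnpla1 (-0.22, 0.295) and Ephx3 (-0.34, 0.0761) did not pass either. Degs2, a desaturase and hydroxylase of ceramides, rose from 0 to 0.529 CPM in the control samples to 7.25 to 11.8 CPM in the radiated ones (adjusted p = 5.07e-05), and no fold is given because the control level rests on 0 to 10 counts. At week 3, when 27.2% of all genes passed, 6 of the 20 fell and 3 rose. With total-count scaling 3 fell and 5 rose, and all genes shifted likewise, from 2397 lower and 2408 higher to 1270 lower and 4054 higher.

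Of 12 leukotriene genes tested, 4 rose and 0 fell at week 4, a smaller share than the 48.4% of all genes that passed. Alox5ap, the partner of Alox5, rose from 3.22 ± 1.43 to 16.0 ± 2.84 CPM (SD, n = 4), by 2.32 on the log2 scale (SE 0.295, edgeR adjusted p = 0.000163), where Alox5 itself differed by 0.38. Lta4h, which makes leukotriene B4, rose by 0.36 (0.0145) and Ggt5, which converts leukotriene C4, by 1.73 (1.35e-05), and Ltc4s did not pass (0.38, adjusted p = 0.318). Among 9 receptors of lipoxygenase products, 4 rose and 1 fell, near the same 48.4%. Gpr132 rose by 2.31 (8.14e-05) and Ppara fell by 2.36 (0.000885). Fpr2, the lipoxin and formyl peptide receptor, was at 2.89 to 5.51 CPM in radiated skin and at 0 to 0.128 CPM, 3 counts or fewer, in control skin (adjusted p = 1.44e-05).

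Cyclooxygenases use the same arachidonic acid as lipoxygenases, and among 15 prostanoid genes 7 rose and 4 fell at week 4, where 24.2% of all genes rose and 24.2% fell. Ptgs2, the inducible enzyme, rose by 3.23 (edgeR adjusted p = 0.000163) and Ptgs1, the constitutive one, fell by 1.27 (4.42e-05). Ptgir rose by 1.86 (0.000164), Ptger3 fell by 0.75 (0.00909) and Hpgd did not pass (-0.33, adjusted p = 0.332). Of 11 phospholipase A2 genes, whose enzymes free fatty acids from lipids, 3 rose and 3 fell, near the 48.4% of all genes that passed, and with total-count scaling 5 rose and 2 fell. Pla2g4e rose by 3.98 (2.67e-06) and Pla2g7 by 3.37 (2.11e-06), while Pla2g3 fell by 2.92 (2.34e-05) and Pla2g2f by 1.44 (0.00111). At weeks 1 and 2 edgeR passed 0 genes of these 5 lists, as it did for the 7 lipoxygenases.

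**Figure D5:**
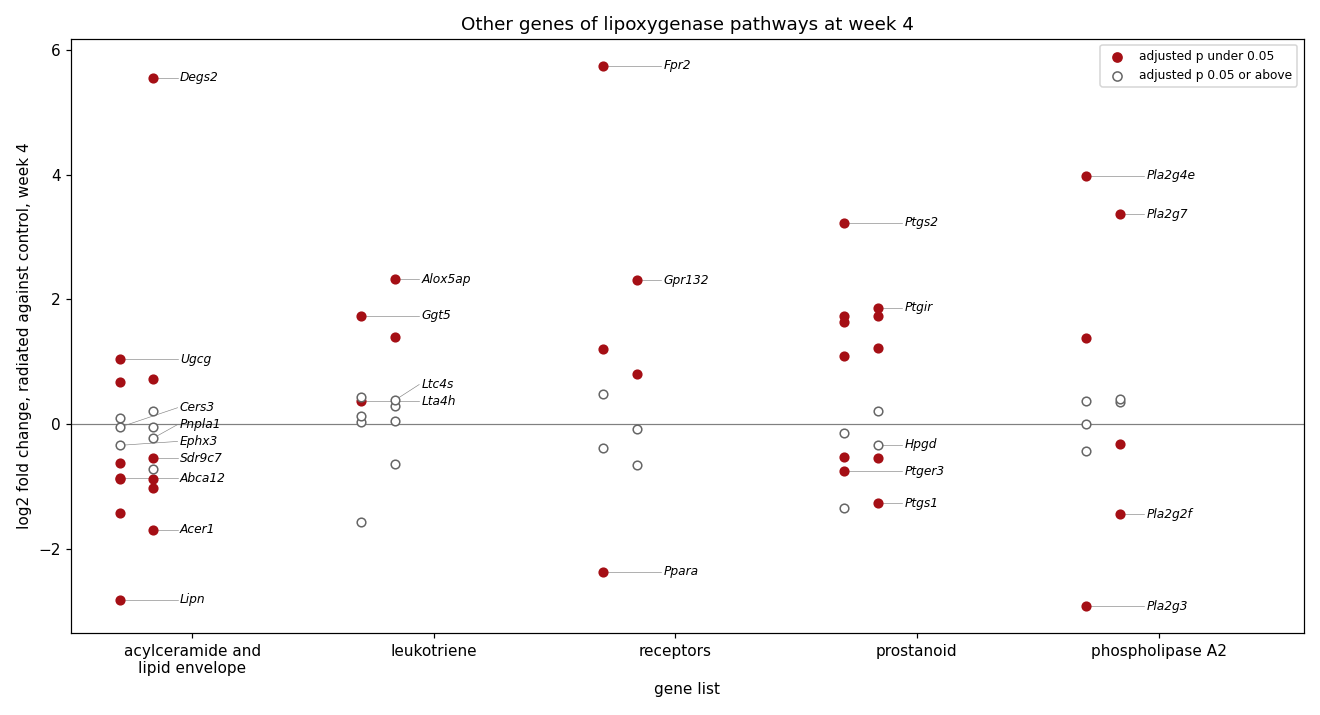
Log2 fold change of radiated against control skin at week 4 (vertical axis) for the tested genes of 5 lists, filled where the adjusted p was under 0.05, with the named genes marked. Degs2 and Fpr2 stand highest, both from control levels near 0, and the 4 filled points of the leukotriene list are all above 0.

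Over all 35 samples Alox12b and Aloxe3 had a Pearson correlation of 0.864 in log2 CPM, and 0.795 within the 16 control samples. Of 16405 genes compared, those most like Alox12b were Sdcbp2 (0.905), Aloxe3 and Klk11 (0.86), and those most like Aloxe3 were Adgrf2 (0.902), Abca12 (0.901) and Sdcbp2 (0.897). For Alox12e they were Skint9 (0.955), Skint1 (0.952) and Tnfrsf19 (0.94), with 0.306, 0.102 and -0.327 within the control samples, where Alox12e ran from 55.1 to 129 CPM. For Alox12 they were Rab3b, Mcc and Fam189a2 (0.825 to 0.865), for Alox8 Capn12, Pinlyp and Lrrc15 (0.788 to 0.795) and for Alox5 Prrx1, Hip1 and Zeb2 (0.83 to 0.856). Those of Alox8 had 0.37 to 0.525 within the radiated and 0.758 to 0.855 within the control samples. Alox15 had the weakest, Kctd11, Hars and Itch (0.693 to 0.734). Aloxe3 and Alox5 had a negative correlation, at -0.696 over 35 samples, -0.898 over the 16 radiated ones and -0.313 over the 16 control ones. The samples share weeks and, as was taken here, mice, and these values are descriptions.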

How the data were processed

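Per the submitters' processing notes, reads were handled with Trim Galore 0.6.7 and kallisto 0.46.2 on mm10, and the labels' protocols also name DESeq2. The authors deposited estimated counts per gene, unscaled between samples. Library totals ran from 17362853 to 28487885 counts, and 29.5% to 32.5% of the values of a library were not whole. Counts were rounded here. Those of Aloxe3, Alox12 and Alox8 were fractional in 35 of 35 samples and those of the other 4 lipoxygenases in 0, so the former depend on how reads were split. A floor of 3 counts corresponded to 0.114 to 0.175 CPM, which covers counting error only.

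Each comparison was fitted on its own groups over all genes with edgeR 4.0.16 in R 4.3.3 (filterByExpr, TMM, quasi-likelihood F test, Benjamini-Hochberg adjustment over all genes tested). The standard error is the log2 fold change divided by the square root of F. CPM used TMM factors from 19813 genes, and log2 CPM used a prior count of 2. Alternatives were DESeq2 1.42.0, total-count scaling, no filter on low counts, 1 fit of all 35 samples, a replicate block and leaving out each sample. For the difference over weeks, all samples of 1 number were left out together. The scripts were tested on simulated data. No libraries were identical.

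Pairs were taken from the labels, where radiated and control samples of a week share a number, and from the series text, whose 19 mice leave 16 for 32 such samples. Same-numbered samples had mean correlations of their deviations from the group means of 0.071, 0.17, 0.053 and -0.02 at weeks 1 to 4, and differently numbered ones -0.024, -0.057, -0.017 and 0.0074. If control samples share a mouse with radiated ones, as was taken here, the fits without the block treat related samples as separate.

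Named pathway genes were the 2 largest increases and 2 largest decreases of each list that passed at week 4 with at least 1 CPM, and 11 genes given whatever their values. Genes most like a lipoxygenase were the 3 with the highest correlation over 35 samples. The genes, lists and tests were chosen with earlier results of these data known. Marker lists for sebaceous glands, adipocytes, skeletal muscle, Langerhans cells and B cells are given with the other observations. Transcript lengths and positions are from GENCODE, and promoter letters from RefSeq.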

Additional observations from a re-analysis of the deposited data

Results flagged for a closer look

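Among the 56 groups of 4 samples (7 genes in 8 groups), 4 held a sample whose gap to its nearest neighbour took up more of the group's range than Dixon's test allows, where chance gives such a sample in about 1 group of 20. They were Alox12e in radiated sample 4 of week 3 at 95.7 CPM, Alox12 in control sample 3 of week 4 at 20.3 CPM, and Alox8 in control sample 1 of week 1 at 13.7 CPM and in control sample 1 of week 2 at 5.65 CPM. The radiated-minus-control difference varied between weeks for Aloxe3 (edgeR adjusted p = 0.00702) and Alox12 (0.0343), by the F test of the interaction of week and radiation.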

How the results depend on the processing

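Of the 6 week 4 calls of radiated against control skin, those of Alox12e, Alox12, Aloxe3 and Alox8 held in all 13 alternatives, that of Alox12b ended in 8 and that of Alox15 in 4. The number of lipoxygenases passing moved by over 1.5 times in these cases, each with the share of all genes passing there and, in brackets, in the fit reported. With DESeq2 it was 2 in place of 0 for radiated against control skin at week 3, with 28.9% (27.2%) of all genes, 3, 5 and 2 in place of 1, 3 and 1 for radiated against sham skin at weeks 1 to 3, with 6.63%, 11.8% and 22.1% (1.75%, 5.06% and 18.2%), and 2 and 4 in place of 0 and 1 for control against sham skin at weeks 1 and 2, with 17.1% and 10.6% (4.92% and 2.44%). In 1 fit of all 35 samples it was 2 for radiated against control skin at week 3, with 33.9% (27.2%), 4 for radiated against sham skin at week 3, with 32.3% (18.2%), and 1, 2, 1 and 1 for control against sham skin at weeks 1 to 4, with 5.65%, 7.87%, 11.5% and 3.01% (4.92%, 2.44%, 11.4% and 3.65%). With the replicate block, which pairs samples of the same number, it was 1 for radiated against control skin at week 3, with 21.1% (27.2%), and the block changed no other call of a lipoxygenase. Without the filter it was 2 and 3 for radiated against sham skin at week 1 and control against sham skin at week 2, with 2.23% and 2.98% (1.75% and 2.44%), and with total-count scaling 0 for radiated against sham skin at week 1, with 1.87% (1.75%). Leaving out each sample gave 0 to 0, 0 to 0, 0 to 4 and 4 to 7 for radiated against control skin at weeks 1 to 4, 0 to 2, 0 to 3, 1 to 3 and 2 to 4 for radiated against sham skin, and 0 to 2, 0 to 3, 0 to 3 and 0 to 3 for control against sham skin. For the difference over weeks, leaving out all samples of 1 number together gave 0 to 2. Over the same omissions 0% to 1.3%, 0% to 1.16%, 17.9% to 28.3% and 41.8% to 47.3% of all genes passed for radiated against control skin, 0.00557% to 2.88%, 0.583% to 7.94%, 6.07% to 22% and 19.1% to 24.5% for radiated against sham skin, 0% to 9.84%, 0% to 12.5%, 3.46% to 13.3% and 0% to 9.26% for control against sham skin, and 4.97% to 9.2% for the difference over weeks.

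Total-count scaling shifted the all-gene median (log2) from 0.05 to 0.18 at week 1 and from 0.08 to 0.32 at week 3 of radiated against control skin, and reversed 4 values that had not passed: Alox12 at week 1 (0.019), Alox12b (0.0079) and Alox8 (0.16) at week 3, and Alox15 in control against sham skin at week 3 (-0.0097). The replicate block reversed Alox8 at week 1 (0.093). Leaving out 1 sample reversed 15 values, 4 of them among the 5 above, and none had passed. For radiated against control skin these lay in Alox8, which then ran from -0.68 to 0.83 at week 1, -0.44 to 0.99 at week 2 and -0.37 to 0.33 at week 3, and in Alox12b at week 3 (-0.68 to 0.14). For radiated against sham skin they lay in Alox12 (-0.45 to 0.29) and Alox5 (-0.072 to 0.31) at week 1, Alox5 at week 2 (-0.24 to 0.14) and Aloxe3 at week 3 (-0.43 to 0.21). For control against sham skin they lay in Alox12 at weeks 1 to 4 (-0.32 to 0.42, -0.54 to 0.20, -0.45 to 0.30 and -0.34 to 0.41) and Alox15 at weeks 1, 3 and 4 (-0.96 to 0.86, -0.29 to 1.47 and -1.11 to 0.64). The cause was not tested.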

Other observations

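Marker lists of other skin cells gave these summed levels at week 4, when 24.2% of all genes were lower and 24.2% higher in radiated than in control skin, the share against which the counts of these short lists are to be read. The 10 sebaceous gland markers ran from 1055 to 2267 CPM in radiated and from 1849 to 6158 CPM in control skin, with 4 of 10 lower and 0 higher. The 6 skeletal muscle markers ran from 1870 to 4255 CPM in radiated and from 1450 to 22034 CPM in control skin, with 4 of 6 lower. The 6 fibroblast markers ran from 27896 to 47066 CPM against 2207 to 4634 CPM. The 6 adipocyte markers ran from 346 to 417 CPM against 233 to 817 CPM, with 1 lower, and the 6 Langerhans cell markers from 385 to 611 CPM against 512 to 577 CPM, with 2 lower. Of the 5 B cell markers, 2 were tested and 1 was higher, at sums of 1.94 to 2.86 CPM against 0.741 to 1.92 CPM.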
